A study of Yarrowia lipolytica with 9 samples.

Results

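Fatty alcohols are oxidised to fatty acids in 2 enzymatic steps, and the 9 genes described here are among those assigned to these steps in the yeast *Yarrowia lipolytica*. These are 1 fatty alcohol oxidase (YALI0B14014g), 4 alcohol dehydrogenases (YALI0F09603g, YALI0D25630g, YALI0E17787g and YALI0A16379g) and 4 fatty aldehyde dehydrogenases (YALI0F23793g, YALI0E00264g, YALI0A17875g and YALI0B01298g). They were chosen by locus tag from published gene assignments, and all 9 had a row among the 6170 gene rows of the deposited table. The data are mRNA sequencing of strain W29, a wild-type isolate with no engineered allele, grown in bioreactors on 50 g/L glucose with 1.7 g/L yeast nitrogen base, 1.5 g/L yeast extract and 1 g/L ammonium sulfate. A set of 3 bioreactors (replicates A, B and C) was held at each of pH 2.0, pH 4.0 and pH 6.0, and RNA was taken at hour 50. All groups share the strain, the glucose medium and the harvest time, so pH is the only labelled difference.

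Y. lipolytica grows on alkanes and lipids as well as on sugars. Alkanes are first hydroxylated to fatty alcohols by cytochrome P450 enzymes. The alcohols are then oxidised to fatty aldehydes, either by a fatty alcohol oxidase, a flavoenzyme that passes electrons to oxygen, or by NAD(P)-dependent alcohol dehydrogenases. Fatty aldehyde dehydrogenases turn the aldehydes into fatty acids, which are activated with coenzyme A and degraded by beta-oxidation in the peroxisome. The oxidase is known in this yeast for the oxidation of long-chain omega-hydroxy fatty acids. No alkane or fatty alcohol is named in the medium, so the levels below are those of glucose-fed cells.

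The libraries held 12974822 to 17701766 recovered reads, and the levels are given in CPM (counts per 1e+06 reads, on the authors' effective library size). On the first principal component over all genes, which held 71.6% of the variance, pH 2.0 replicate A lay at -47.6, against -37.0 and -37.9 for the other libraries of that group. The members were also fitted without this library, whereas sums, shares, profiles and the values of other loci are given with it included. Members were covered by 13199 to 42727 reads per library for the oxidase and by 48 to 147 for YALI0D25630g, the member with the fewest. A gene is called where the adjusted p of limma (Benjamini-Hochberg over 6165 genes, two-sided) is under 0.05, and all 9 members passed the filter on low values. Levels are not corrected for gene length, so single levels are compared between libraries for 1 gene. Sums, shares and ratios over genes are of normalized reads and do not rank genes by amount of mRNA. In RNA of whole cultures, fewer cells that express a gene and less of its mRNA per cell cannot be told apart.

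**Figure D1:**
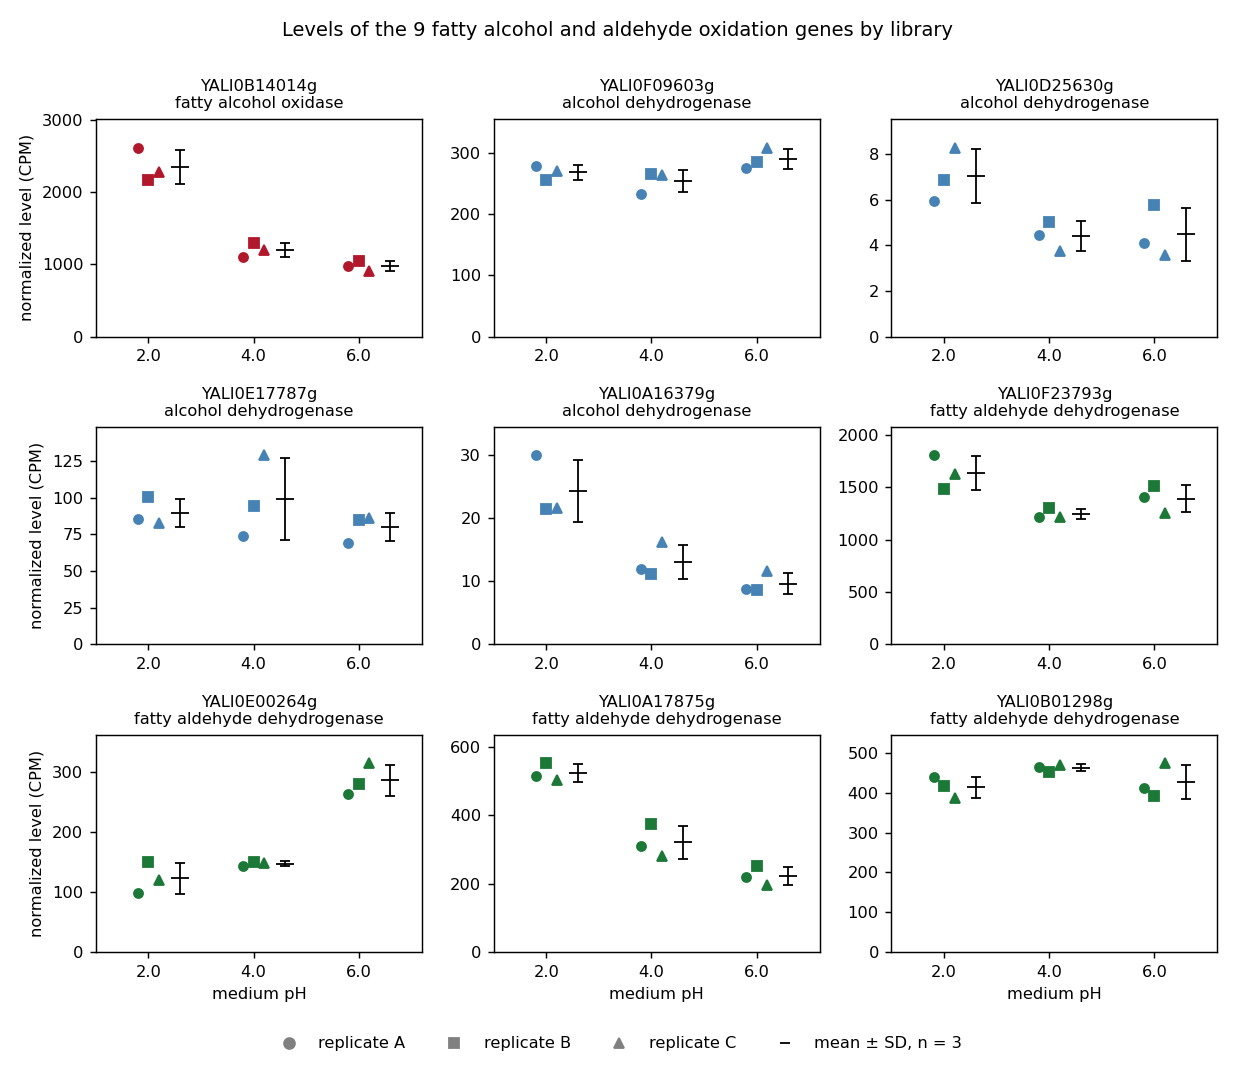
Normalized level in CPM (vertical axes, from 0, 1 scale per gene) against medium pH for the 9 genes; each symbol is 1 library (circle, replicate A; square, B; triangle, C) and the black mark is the mean ± SD of 3 libraries. The fatty alcohol oxidase YALI0B14014g falls, its pH 2.0 mean being 2353 CPM and its pH 6.0 mean 978 CPM, while YALI0E00264g rises from 123 to 286 CPM.

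Over the 3 pH values, 6 of the 9 genes were called by the moderated F test of limma, beside 84.0% of all genes tested, so as a family they did not respond more often than genes in general. The 6 were the oxidase, the alcohol dehydrogenases YALI0D25630g and YALI0A16379g, and the aldehyde dehydrogenases YALI0F23793g, YALI0E00264g and YALI0A17875g. The levels of the oxidase, of YALI0A16379g and of YALI0A17875g were highest at pH 2.0 and lowest at pH 6.0, whereas YALI0E00264g had the opposite order. YALI0F09603g, YALI0E17787g and YALI0B01298g were not called (adjusted p = 0.0939, 0.350 and 0.177).

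The fatty alcohol oxidase YALI0B14014g, which oxidises the alcohol with oxygen as the acceptor, stood at 2618, 2166 and 2275 CPM in the pH 2.0 libraries. It stood at 1103, 1297 and 1193 CPM at pH 4.0. At pH 6.0 it was at 985, 1046 and 904 CPM. The groups did not overlap in any comparison, with every pH 2.0 library above every pH 4.0 library and every pH 4.0 library above every pH 6.0 library. Its mean dropped from 2353 ± 236 CPM to 978 ± 71.6 CPM between the extremes of pH (SD, n = 3 each), a log2 fold change of -1.26 (SE 0.10, limma adjusted p = 1.20e-06). A difference at least this large was found for 13.4% of all genes tested. Without pH 2.0 replicate A, in which the oxidase was highest, the log2 fold change was -1.18.

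Most of the oxidase's fall lay between pH 2.0 and pH 4.0. That step was -0.97 on the log2 scale (SE 0.10, limma adjusted p = 2.18e-05), and the step from pH 4.0 to pH 6.0 was -0.29 (SE 0.10, adjusted p = 0.0271). The test of the difference between the steps was called (second minus first 0.68, SE 0.17, limma adjusted p = 0.00706), and under quantile normalization that difference was 1.12. Quantile normalization ended the call of the second step (-0.17), as did leaving out any of 4 libraries: replicate B (-0.23) or C (-0.29) of pH 4.0, and replicate A (-0.30) or C (-0.24) of pH 6.0. The call of the first step held in each alternative fit. Its reported size lay under a limit of 1 on the log2 scale, and over the alternatives it ran from -1.29 to -0.89.

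The 4 alcohol dehydrogenases are assigned to the oxidation of the same alcohols with a nicotinamide cofactor, and the activity of each on fatty alcohols was not measured here. At pH 6.0, 2 of the 4 were lower than at pH 2.0 and none was higher, beside 37.9% of all genes lower and 35.1% higher. Their summed level was 389 ± 9.77 CPM at pH 2.0, 371 ± 45.3 CPM at pH 4.0 and 384 ± 25.9 CPM at pH 6.0 (SD, n = 3 each). The sum is mostly that of YALI0F09603g, whose share of the class's reads lay between 64.0% and 77.0% in the 9 libraries. These shares are of reads, without correction for length, and do not change when a library is multiplied by a constant factor.

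YALI0A16379g was the alcohol dehydrogenase with the larger fall. Its levels were 30.0, 21.5 and 21.5 CPM at pH 2.0, then 12.0, 11.2 and 16.2 CPM at pH 4.0, and 8.74, 8.60 and 11.6 CPM at pH 6.0. The pH 2.0 libraries lay above all others, whereas the pH 4.0 and pH 6.0 libraries overlapped. Its log2 fold change was -1.25 from pH 2.0 to pH 6.0 (SE 0.17, limma adjusted p = 8.36e-05), and -1.37 to -1.09 with 1 library left out. Between pH 2.0 and pH 4.0 it was -0.84 (SE 0.17, adjusted p = 0.00169), or -0.55 under quantile normalization. With 1 library left out that step ran from -0.99 to -0.69. The value from pH 4.0 to pH 6.0 was -0.40 (95% confidence interval -0.79 to -0.02), which was not called over all genes (limma adjusted p = 0.0747) but was called without pH 2.0 replicate A (-0.40) or pH 6.0 replicate C (-0.53). Its share of the class's reads dropped from 6.23% ± 1.08 at pH 2.0 to 3.54% ± 0.496 at pH 4.0 and 2.50% ± 0.299 at pH 6.0.

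YALI0D25630g was measured at a low level, 5.94, 6.85 and 8.27 CPM at pH 2.0, 4.47, 5.03 and 3.74 CPM at pH 4.0, and 4.10, 5.76 and 3.56 CPM at pH 6.0. Each pH 2.0 library lay above all libraries of the other groups, although the margin to the highest pH 6.0 library was small. The exact Poisson 95% intervals, which cover counting error only, overlapped there: 4.82 to 7.25 CPM for pH 2.0 replicate A and 4.61 to 7.10 CPM for pH 6.0 replicate B. It was called lower at pH 4.0 (log2 -0.56, SE 0.17, limma adjusted p = 0.0156) and at pH 6.0 (-0.56, SE 0.17, adjusted p = 0.0137) than at pH 2.0. Quantile normalization (-0.18 and -0.17) ended both calls, as did leaving out replicate C of pH 2.0 (-0.45 and -0.45). With a pseudocount of 5 the values were -0.35 and -0.35. The first was also lost without pH 4.0 replicate C (-0.47) and the second without pH 6.0 replicate C (-0.44).

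The other alcohol dehydrogenases among the members were not called in any pairwise comparison by limma with all libraries under the deposited scaling. YALI0F09603g lay at 279, 255 and 271 CPM at pH 2.0, 232, 265 and 264 CPM at pH 4.0, and 276, 286 and 308 CPM at pH 6.0. Its pH 6.0 libraries were above its pH 4.0 libraries without overlap, with a log2 fold change of 0.19 (interval 0.02 to 0.36, limma adjusted p = 0.0560). DESeq2 called that difference (0.20, adjusted p = 0.0312). Between pH 2.0 and pH 6.0 the value was 0.11 (interval -0.06 to 0.28); under scaling to equal totals it was -0.11, not called, and under quantile normalization it was called lower (-0.23). Against pH 2.0, pH 4.0 stood at -0.08 (interval -0.25 to 0.09), a difference called lower under scaling to equal totals (-0.29) and quantile normalization (-0.32). The difference between its steps was also called under these scalings (0.47 and 0.42) but not under the deposited one (0.27, limma adjusted p = 0.108).

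YALI0E17787g spread widely at pH 4.0, where its libraries held 74.0, 94.6 and 129 CPM. At pH 2.0 they held 85.7, 101 and 82.5 CPM and at pH 6.0 69.4, 85.1 and 86.4 CPM, so that all groups overlapped. Its 95% confidence intervals were -0.27 to 0.50 for pH 4.0 against pH 2.0, -0.66 to 0.11 for pH 6.0 against pH 4.0 and -0.54 to 0.23 for pH 6.0 against pH 2.0. These intervals leave room for differences of the size called in YALI0D25630g only in the step from pH 4.0 to pH 6.0. Without pH 4.0 replicate A, that step was called lower (log2 -0.46, limma adjusted p = 0.0329), whereas without pH 4.0 replicate C it was -0.07 and not called. Without replicate C the value for pH 4.0 against pH 2.0 was -0.09, in place of 0.11.

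**Figure D2:**
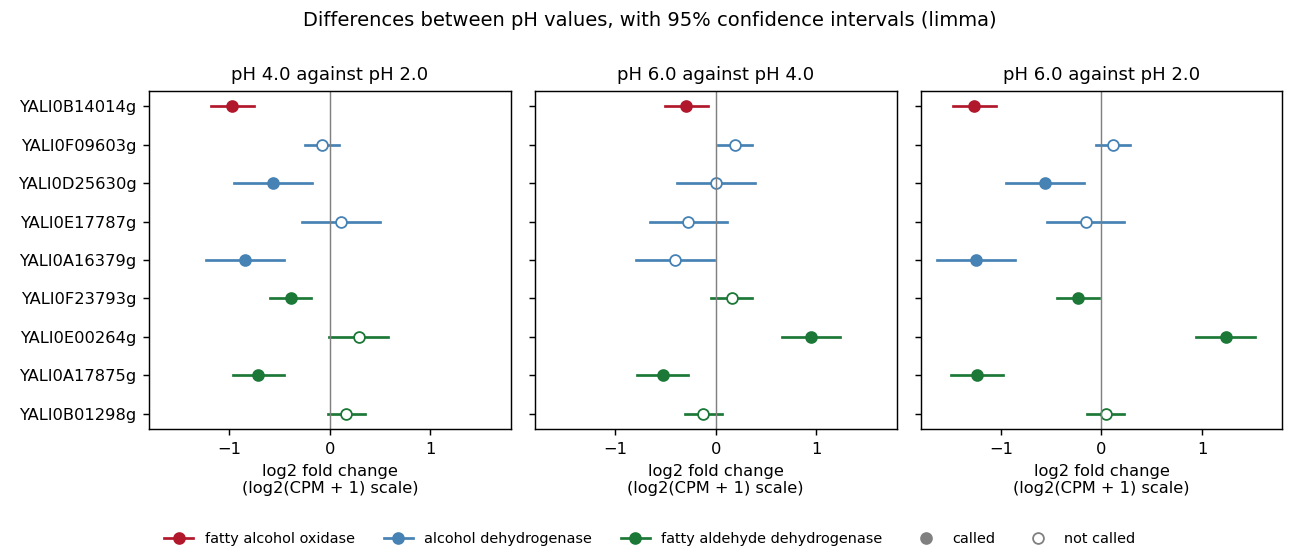
Log2 fold change on the log2(CPM + 1) scale (horizontal axes) of each of the 9 genes in the 3 pairwise comparisons, with lines for the 95% confidence interval of limma; filled points were called at an adjusted p under 0.05 and open points were not. For pH 6.0 against pH 2.0 the fatty aldehyde dehydrogenases YALI0E00264g (1.23) and YALI0A17875g (-1.24) lie on opposite sides of 0.

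The fatty aldehyde dehydrogenases carry out the last oxidation, from aldehyde to fatty acid, and their genes did not all move in 1 direction. At pH 6.0, 2 of the 4 were lower than at pH 2.0, 1 was higher and 1 was not called, beside 37.9% of all genes lower and 35.1% higher. Their summed level was 2697 ± 139 CPM at pH 2.0, 2176 ± 91.6 CPM at pH 4.0 and 2325 ± 97.4 CPM at pH 6.0 (SD, n = 3 each), and the pH 2.0 libraries were above all others.

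YALI0E00264g was the 1 member called higher. Its levels were 97.7, 150.3 and 120.0 CPM at pH 2.0, 143, 151 and 149 CPM at pH 4.0, and 264, 280.3 and 315 CPM at pH 6.0. The pH 6.0 libraries lay far above the others, while pH 2.0 replicate B reached into the range of pH 4.0. The log2 fold change was 1.23 from pH 2.0 to pH 6.0 (SE 0.13, limma adjusted p = 1.19e-05) and 0.95 from pH 4.0 to pH 6.0 (SE 0.13, adjusted p = 2.56e-04). A difference as large as the latter was found for 6.24% of all genes tested. With 1 library left out, the log2 fold change from pH 2.0 to pH 6.0 ran from 1.08 to 1.39. The value between pH 2.0 and pH 4.0 was 0.29 (interval -0.01 to 0.58, limma adjusted p = 0.0810), and it was called only in the fit without pH 2.0 replicate B (0.44) among the alternatives run. The difference between the steps was 0.66 (SE 0.23, limma adjusted p = 0.0335); this call was lost without any 1 of the pH 4.0 libraries (0.62, 0.69 and 0.67) and without replicate B (0.68) or C (0.59) of pH 6.0.

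YALI0A17875g went the other way, with 516, 553 and 503 CPM at pH 2.0, 310, 375 and 281 CPM at pH 4.0, and 220, 251 and 197 CPM at pH 6.0. No 2 groups overlapped. The log2 fold change was -1.24 from pH 2.0 to pH 6.0 (SE 0.12, limma adjusted p = 4.40e-06), made up of -0.71 in the first step (SE 0.12, adjusted p = 3.57e-04) and -0.53 in the second (SE 0.12, adjusted p = 0.00354). The steps were not called as different (0.19, interval -0.26 to 0.63, limma adjusted p = 0.458). All 3 pairwise calls of this gene held in each alternative fit, but under a further limit of 1 on the log2 scale only that for pH 6.0 against pH 2.0 would stand.

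The ratio of these 2 genes within a library, which multiplying a library by a constant factor cannot change, was higher in each pH 6.0 library than in any other. It was chosen after the levels had been seen and is given without a test. Per library, the reads of YALI0E00264g over those of YALI0A17875g were 0.189, 0.272 and 0.238 at pH 2.0, then 0.462, 0.402 and 0.530 at pH 4.0, and 1.20, 1.12 and 1.60 at pH 6.0. As shares of the class's reads, YALI0E00264g went from 4.58% ± 1.18 at pH 2.0 to 6.78% ± 0.227 at pH 4.0 and 12.3% ± 1.46 at pH 6.0. The share of YALI0A17875g went from 19.5% ± 1.65 to 14.7% ± 1.59 and 9.55% ± 0.776.

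**Figure D3:**
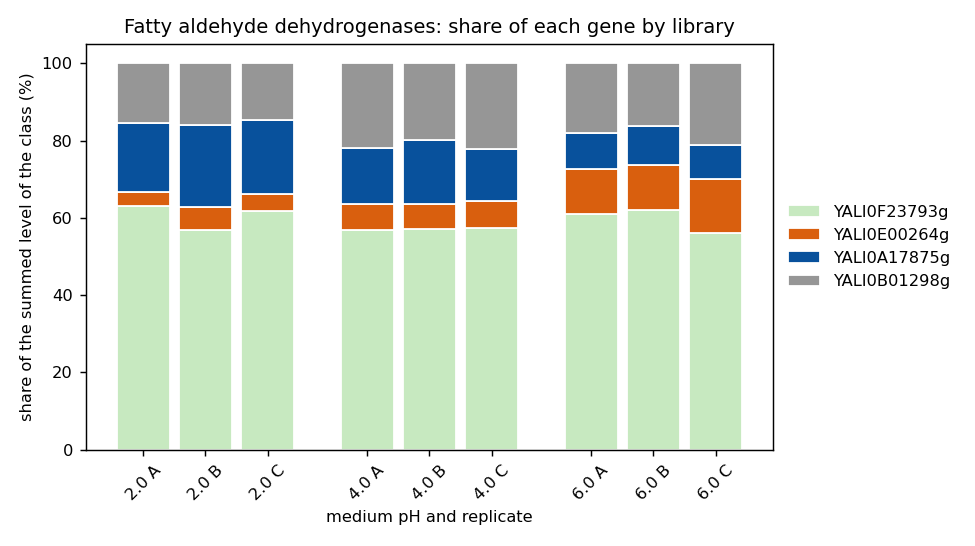
Share of the summed level of the 4 fatty aldehyde dehydrogenases (vertical axis, %, reads without length correction) held by each gene in each of the 9 libraries; bars are single libraries, so there are no error bars. The share of YALI0E00264g is 3.42% to 5.78% in the pH 2.0 libraries and 11.5% to 14.0% in the pH 6.0 libraries, and that of YALI0A17875g is 18.1% to 21.3% and 8.77% to 10.3%.

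YALI0F23793g, another aldehyde dehydrogenase, was lowest at pH 4.0. Its levels were 1803, 1478 and 1628 CPM at pH 2.0, 1215, 1302 and 1214 CPM at pH 4.0, and 1404, 1509 and 1258 CPM at pH 6.0. Only pH 2.0 and pH 4.0 were free of overlap. The fall from pH 2.0 to pH 4.0 was -0.39 on the log2 scale (SE 0.09, limma adjusted p = 0.00399), a value of -0.60 under scaling to equal totals and -0.73 under quantile normalization. Between pH 2.0 and pH 6.0 the value was -0.23 (SE 0.09, limma adjusted p = 0.0428), and this call did not hold widely. It was lost with the replicate block (adjusted p = 0.0618), without the variance trend, with DESeq2 (-0.20), and in a fit of the 2 groups alone. It was also lost on leaving out replicate A (-0.16) or C (-0.24) of pH 2.0, B (-0.23) of pH 4.0, or A (-0.24) or C (-0.16) of pH 6.0. Under scaling to equal totals and quantile normalization it was -0.45 in both. The value between pH 4.0 and pH 6.0 was 0.16 (interval -0.05 to 0.37, not called), and 0.28 under quantile normalization, which called it. The steps differed by 0.55 (SE 0.16, limma adjusted p = 0.0174), a call lost without pH 4.0 replicate A (0.52) or C (0.51); under quantile normalization the difference was 1.01.

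YALI0B01298g was not called in the pairwise comparisons by limma with all libraries under the deposited scaling. It was measured at 439, 416 and 387 CPM at pH 2.0, 466, 453 and 470.1 CPM at pH 4.0, and 412, 392 and 474 CPM at pH 6.0. The pH 4.0 libraries lay above the pH 2.0 libraries without overlap, and pH 6.0 overlapped with both. The log2 fold changes were 0.16 for pH 4.0 against pH 2.0 (interval -0.02 to 0.35), -0.12 for pH 6.0 against pH 4.0 (interval -0.31 to 0.06) and 0.04 for pH 6.0 against pH 2.0 (interval -0.14 to 0.22). Under quantile normalization the last was called lower (-0.34), as was pH 6.0 against pH 4.0 (-0.21). Its steps were called as different only in the fit without pH 6.0 replicate C (-0.37) among the alternatives run, and the reported value was -0.29.

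Set beside all genes tested, the 9 did not stand out by their number of calls. For pH 6.0 against pH 2.0, 6 of 9 were called (5 lower, 1 higher), beside 73.0% of all genes (37.9% lower, 35.1% higher). For pH 4.0 against pH 2.0, 5 of 9 were called, all 5 lower, beside 63.4% of all genes (32.6% lower, 30.8% higher). For pH 6.0 against pH 4.0, 3 of 9 were called (2 lower, 1 higher), beside 51.5% (25.8% lower, 25.7% higher). In the contrast of the 2 steps 3 of 9 were called, all with a positive difference, beside 50.4% (26.1% positive, 24.3% negative). None of the 9 was called higher at pH 4.0 than at pH 2.0 by limma, where 0 had an unadjusted p under 0.05 in that direction, or by edgeR; DESeq2 called none either, with 2 at an unadjusted p under 0.05. Among the 4 alcohol dehydrogenases, limma and edgeR called none between pH 4.0 and pH 6.0, with 2 at an unadjusted p under 0.05, and DESeq2 called 1.

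By size, the median log2 fold change of the 9 was -0.23 for pH 6.0 against pH 2.0, beside -0.04 for all genes. It was -0.39 for pH 4.0 against pH 2.0, beside -0.02, and -0.12 for pH 6.0 against pH 4.0, beside -0.003. The groups did not overlap in 5 of 9 genes for pH 6.0 against pH 2.0, beside 77.9% of all genes. They did not overlap in 6 of 9 for pH 4.0 against pH 2.0, beside 67.6%, and in 4 of 9 for pH 6.0 against pH 4.0, beside 62.2%. The authors' effective library size over the recovered reads was 1.098 to 1.106 at pH 2.0. It was 0.914 to 0.990 at pH 4.0 and 0.946 to 0.951 at pH 6.0, so the deposited scaling differs between pH 2.0 and the other groups. With libraries scaled to equal totals, the all-gene median for pH 6.0 against pH 2.0 went from -0.04 to -0.25. Relative to that median the oxidase was at -1.23, YALI0A16379g at -1.20, YALI0A17875g at -1.20 and YALI0E00264g at 1.27.

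The summed level of the 9 genes was 5439 ± 384 CPM at pH 2.0, 3744 ± 199 CPM at pH 4.0 and 3688 ± 159 CPM at pH 6.0 (SD, n = 3 each; no test was made on a sum over chosen genes). The sum adds reads without length correction. The fall of the oxidase equalled 78.5% of its net difference between pH 2.0 and pH 6.0 and 68.1% of that between pH 2.0 and pH 4.0. Some members rose, so these are not shares of the falls alone. From pH 4.0 to pH 6.0 the oxidase changed by -219 CPM and the sum by -56.3 CPM. The oxidase's share of the reads of the 9 genes was 44.6%, 42.1% and 43.0% in the pH 2.0 libraries, 31.0%, 32.8% and 32.1% at pH 4.0, and 27.0%, 27.1% and 25.4% at pH 6.0. No library of a group reached the range of another.

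The profile over the 3 pH values was compared between genes by the root mean square difference of their mean log2(CPM + 1) after each gene's own mean had been removed. The member nearest to the oxidase was YALI0A16379g (0.0576), and the member nearest to YALI0A17875g was also YALI0A16379g (0.0596). YALI0E00264g had no near neighbour among the 9, its smallest difference being 0.468, to YALI0F09603g. Of 31 other loci of the route, the nearest to the oxidase were YALI0E06567g (0.0279), listed as an acyl-CoA oxidase of beta-oxidation, and YALI0E25982g (0.0688), listed as an alkane cytochrome P450. Among all 5337 other loci with a mean of at least 10 CPM, the nearest were YALI0E31889g (0.0099) and YALI0F27533g (0.0167), to which no function is given here. Of these 5337, 92 lay within 0.1, a limit set by hand, so the profile is not particular to the oxidase.

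**Figure D4:**
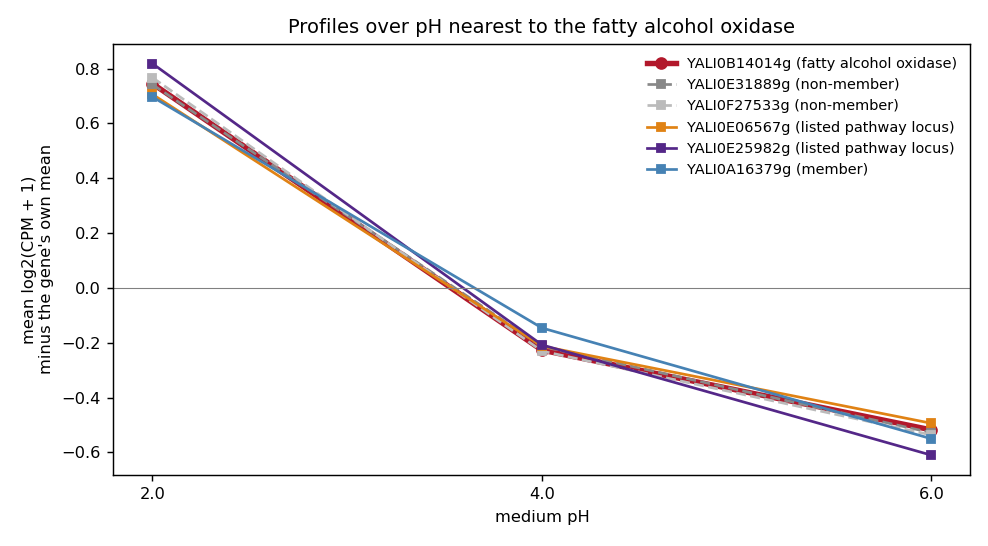
Mean log2(CPM + 1) of 3 libraries minus the gene's own mean over pH (vertical axis) against medium pH, for the fatty alcohol oxidase (thick red line) and the nearest loci: 2 among all other loci, 2 among the listed loci of the route, and the nearest member. The lines run close together, with root mean square differences of 0.0099 to 0.0688 from the oxidase.

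The steps before and after alcohol and aldehyde oxidation held loci called in both directions. Of 31 listed loci with a value (4 further alcohol dehydrogenases, 11 alkane cytochrome P450s, 1 cytochrome P450 reductase, 4 of fatty acid activation and transport, 8 of beta-oxidation and 3 regulators), 8 were higher and 15 lower at pH 6.0 than at pH 2.0. At pH 4.0 against pH 2.0, 7 were higher and 13 lower, and at pH 6.0 against pH 4.0, 7 were higher and 9 lower. Of all genes, 35.1% were higher and 37.9% lower in the first of these comparisons, 30.8% and 32.6% in the second, and 25.7% and 25.8% in the third. Calls in both directions are thus not particular to these loci. Their median log2 fold changes were -0.23, -0.22 and -0.09 in that order. Scaling to equal totals gave 8 higher and 20 lower for pH 6.0 against pH 2.0, beside 24.7% and 48.7% of all genes under that scaling. It gave 6 higher and 18 lower for pH 4.0 against pH 2.0, beside 20.6% and 46.6%.

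Of the 11 alkane cytochrome P450s with a value, 3 were higher and 7 lower at pH 6.0 against pH 2.0, beside 35.1% of all genes higher and 37.9% lower. They are listed as a family, and which of them make fatty alcohols was not measured here. YALI0B13816g fell from 905 ± 45.7 to 208 ± 12.5 CPM (log2 -2.12, limma adjusted p = 5.29e-08). YALI0E23474g rose from 49.2 ± 10.2 to 191 ± 11.8 CPM (log2 1.96, adjusted p = 2.56e-06), and YALI0A15488g from 961 ± 148 to 2872 ± 40.9 CPM (log2 1.59, adjusted p = 4.02e-06). Their log2 fold changes from pH 4.0 to pH 6.0 were -1.19, 0.74 and 0.89, each called.

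Among the 4 further alcohol dehydrogenases, 1 was called higher and 1 lower at pH 6.0 than at pH 2.0. The shares of all genes beside this and the next counts are 35.1% higher and 37.9% lower. YALI0D02167g was at 375 ± 72.4 CPM in the pH 2.0 libraries and rose to 876 ± 93.3 CPM at pH 4.0 (log2 1.23, SE 0.14, limma adjusted p = 3.91e-05) and stood at 1099 ± 77.2 CPM at pH 6.0. In beta-oxidation 2 of 8 were higher and 3 lower at pH 6.0 than at pH 2.0, and the acyl-CoA oxidase YALI0E27654g had a log2 fold change of -1.73. Of the 4 loci of fatty acid activation and transport 2 were lower, among them YALI0E03058g, which was at 252 ± 46.6 CPM in the pH 4.0 libraries and fell to 159 ± 21.2 CPM in those of pH 6.0 (log2 -0.65, limma adjusted p = 0.00286). For the filamentous cell form, a regulator of hyphal growth, YALI0B21582g, was listed, and the share of filamentous cells was not measured. Its mRNA was lower at pH 4.0 than at pH 2.0 (28.0 ± 6.45 against 39.4 ± 3.52 CPM, limma adjusted p = 0.0181), as the members called in that comparison were. Quantile normalization ended that call (-0.34). At pH 6.0 YALI0B21582g stood at 34.9 ± 4.02 CPM and was not called against pH 2.0 (log2 -0.17, limma adjusted p = 0.346). Its part in the members' values was not tested.

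**Figure D5:**
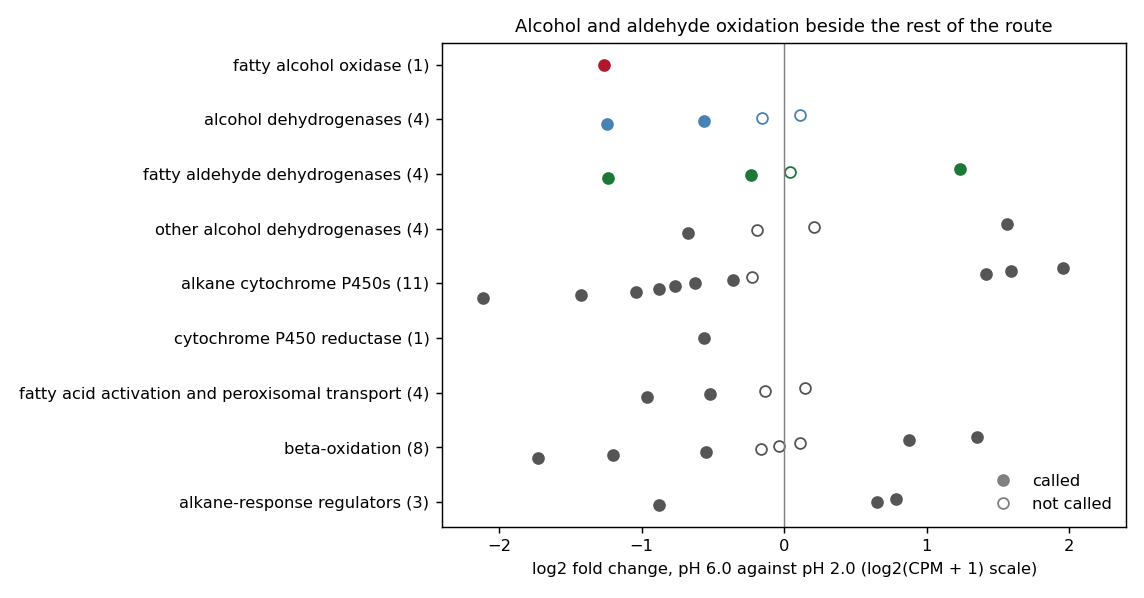
Log2 fold change for pH 6.0 against pH 2.0 on the log2(CPM + 1) scale (horizontal axis) of the 9 genes (coloured) and of the listed loci of the rest of the route (grey), 1 row per list with the number of loci in brackets; filled points were called by limma at an adjusted p under 0.05. Called loci lie on both sides of 0 among the fatty aldehyde dehydrogenases, the further alcohol dehydrogenases, the alkane cytochrome P450s, beta-oxidation and the regulators.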

How the data were processed

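The deposited table holds 6170 gene rows for 9 libraries. Its values are a normalized signal: the authors gave CPM on edgeR's effective library size, per the file headers. Tools named by the submitters' processing notes are HTSeq, edgeR, TopHat2 (2.0.10), Trimmomatic (0.30) and bcl2fastq (1.8.4). Genome build, annotation and strand setting of the counting were not given there or in the labels, so overlapping genes and close family members are uncertain. Whole reads were recovered from the deposited signal (100% of values whole, tolerance 0.01 reads; 1 read was worth 0.0563 to 0.0779 CPM). Intervals from reads cover counting error only.

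The filter asked for 1 CPM or more in 3 or more libraries and kept 6165 genes. log2(CPM + 1) was fitted with limma (3.58.1, under R 4.3.3), using a variance trend, 1 mean per pH and all 9 libraries in 1 fit; low genes' fold changes are thereby understated. The procedure was run on simulated counts in which few genes changed, and only in the pH 6.0 libraries. Most genes were called in these data, so the simulation does not give error rates for them. Alternatives were DESeq2 1.42.0 and edgeR 4.0.16 run on recovered reads, other pseudocounts, filters and scalings, and leaving out each library.

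The members, lists and tests were chosen with earlier results of these data known. All members are named; of the route's other loci, up to 4 called loci with the largest fold change per comparison, the 2 other loci nearest in profile to the oxidase, and each member's nearest member. The nearest listed acyl-CoA oxidase, YALI0E06567g, was named after its values had been seen. The reference table matched 0 of the identifiers, so functions are background from published locus-tag assignments. Of 12 listed P450 loci, 1 had no row and was not analysed here.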

Additional observations from a re-analysis of the deposited data

How the results depend on the processing

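Of 537 values of a member's pairwise log2 fold change under an alternative, 495 kept their direction and their side of the threshold, 20 lost the call, 9 gained one and 13 turned the sign of a reported value that was not called; the cause was not tested. Of the 13, 2 were called: under quantile normalization YALI0F09603g was at -0.23 and YALI0B01298g at -0.34 for pH 6.0 against pH 2.0. The other 11 were not called. Under equal totals YALI0F09603g (-0.11) and YALI0B01298g (-0.18) turned for pH 6.0 against pH 2.0, YALI0E17787g (-0.092) and YALI0B01298g (-0.043) for pH 4.0 against pH 2.0, and YALI0D25630g (-0.0044) for pH 6.0 against pH 4.0. Under quantile normalization YALI0B01298g was at -0.13 for pH 4.0 against pH 2.0. The rest came from leaving out 1 library, over which YALI0B01298g ran from -0.039 to 0.098 for pH 6.0 against pH 2.0, YALI0E17787g from -0.093 to 0.30 for pH 4.0 against pH 2.0, and YALI0D25630g from -0.16 to 0.12 for pH 6.0 against pH 4.0. The difference between the steps of YALI0E17787g, not called, ran from -0.77 to 0.027 in the same way. A further limit of 1 on the size of the log2 fold change left 0 of 5 called members at pH 4.0 against pH 2.0 and 0 of 3 at pH 6.0 against pH 4.0. At an adjusted p under 0.01, 1 of the 3 members called in the contrast of the steps was left. With 1 library left out, the number of members called was 1 to 3 for the contrast of the steps, 4 to 6 for pH 6.0 against pH 2.0, 4 to 6 for pH 4.0 against pH 2.0 and 2 to 4 for pH 6.0 against pH 4.0; the count of 1 came without pH 4.0 replicate A or C, and the call left was that of the oxidase. The letters A, B and C do not mark a shared batch in the labels. Between libraries of different groups, r of the deviations across genes, which are not independent replicates, was -0.20 to 0.27 in 9 same-letter pairs. It was -0.29 to 0.22 in 18 pairs of different letters, so the ranges overlapped. With the replicate block 5 members were called for pH 6.0 against pH 2.0, YALI0F23793g being lost, and the other counts were those reported. Under the filter at 10 CPM YALI0D25630g was not tested. Readings of the difference between the steps for single members were added after the data had been seen. No group had the 4 libraries needed to test for an outlying sample, and depth limits YALI0D25630g most.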
